A study of Mus musculus with 9 samples.

Results

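The genes of glucose breakdown and storage were followed in a mouse fibroblast line in which adenovirus delivered PPARγ. The set holds 39 genes listed by their symbols in the array annotation: 25 of glycolysis with its sugar and lactate transporters, 8 of glycogen metabolism and 6 of the pentose phosphate pathway. Of these, 34 were tested among 18193 genes, 21 of glycolysis, 8 of glycogen and 5 of the pentose phosphate pathway. Gapdh was measured by array control probe sets only and is described apart, and 4 of the listed genes are not analysed here. Each gene is given by 1 probe set, the one with the highest mean over the 9 arrays, and 18 of the 34 members had more than 1 to choose from. In no member did probe sets give differences of opposite sign that both reached 0.3 on the log2 scale. Opposite signs that did not both reach 0.3 did occur, among others in Pfkfb2, Pfkfb3, Tkt, Aldoc, Pfkp and Slc16a1. For 4 members, Aldoa, Pgd, Tkt and Tpi1, the probe set used carries a suffix that Affymetrix gives to probes shared with other transcripts, so those values may include near-identical copies.

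Glycolysis splits glucose into pyruvate, and cells with a high glycolytic rate turn much of that pyruvate into lactate and export it. Glycogen is the stored form of glucose, made from glucose 6-phosphate by way of glucose 1-phosphate and UDP-glucose and broken down again by phosphorylase, while the pentose phosphate pathway draws off glucose 6-phosphate to supply NADPH and ribose. PPARγ is the nuclear receptor that drives adipocyte differentiation, and fat cells depend on glucose uptake and NADPH to make triglyceride.

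NIH-CAR cells derive from NIH-3T3 mouse fibroblasts by cloning and stably carry a coxsackievirus and adenovirus receptor (CARΔ1), so that adenoviral vectors can enter. All cells were of this 1 clonal line at passage 12, all received an adenovirus for 2 h, and every group has 3 Affymetrix arrays numbered 1 to 3. The empty vector group received AdEmpty and then the vehicle DMSO. The full-length group received AdHA-PPARg2, which encodes HA-tagged PPARγ2, and then 1 µM of the agonist rosiglitazone. The A/B-deleted group received AdHA-PPARgCDE, which encodes the HA-tagged receptor without its amino-terminal A/B domain, and then the same dose. Receptor and agonist therefore differ together from the empty vector, and the share of each in a difference cannot be told apart. The promoter that drives the transgenes and the time of harvest are not given in the sources used here. The labels speak of separate experiments without saying which arrays belong to which, so the p-values speak only for array-to-array spread within 1 line, part of which may be technical.

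Pparg, which both receptor viruses carry, read 7.06 ± 0.10 (SD, n = 3) in log2 units in the empty vector group, 11.25 ± 0.84 in the full-length group and 11.34 ± 0.63 in the A/B-deleted group. Fabp4, a fatty acid carrier and classical PPARγ target, averaged 5.82, 13.42 and 12.36 in the same order. Of the other 4 adipocyte markers measured, Cidec, a lipid droplet protein, averaged 5.15, 7.66 and 5.70 (called with the full-length receptor, limma adjusted p = 0.00915), while Adipoq, Lep and Retn were not called and their group means lay between 4.94 and 7.24. Group means of the 8 fibroblast markers lay between 10.50 and 14.16, those of 4 leukocyte markers between 5.99 and 6.48, those of 3 endothelial markers between 5.60 and 6.48, those of 5 epithelial markers between 5.85 and 8.49 and those of 5 muscle markers between 5.54 and 9.71. A lower level in such bulk RNA cannot separate fewer expressing cells from less RNA per cell. The 3 arrays numbered 3 stood apart in every group: their 18S ribosomal control probe sets averaged 8.67, 7.59 and 8.06 for empty vector, full-length and A/B-deleted, against 10.51 to 12.44 on the other 6 arrays. On the same arrays the 3 Gapdh control probe sets read 14.26 to 14.35, above the 13.86 to 14.08 of the other arrays, whereas the difference between the 3' and 5' Gapdh sets stayed within -0.13 to -0.0024 on all 9. Results below are therefore also given without these 3 arrays, and the part that they play was not tested.

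With the full-length receptor, limma with Benjamini-Hochberg adjustment over all genes called 0 of the 34 members against empty vector at an adjusted p under 0.05, where 0.654% of all genes tested were called. At an unadjusted p under 0.05 there were 3 members, Gys1, Pgm1 and Ugp2, against 6.19% of all genes. The arrays of the 2 groups did not overlap for 5 members, against 9.38% of all genes (4.52% higher and 4.86% lower), and all 5 belong to the 8 glycogen genes: Gys1, Pgm1 and Pgm2 read higher and Ugp2 and Pygb lower on every full-length array. Pygb was named after its values were seen. Pgm2 counts as a glycogen gene here by the list, although it acts mainly on pentose phosphates. Member differences ran from -0.47 to 0.70 with a median of 0.07, and 21 of 34 lay above 0 (61.8%, against 50.9% of all genes, whose median was 0.0032). Without the arrays numbered 3, limma again called 0 members, against 0.857% of all genes, and 7 had an unadjusted p under 0.05, where the whole table gave 12.7%. The count of members called changed with the replicate number as a block, which is given in the closing section.

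Gys1, the muscle and general form of glycogen synthase, read 8.38, 8.68 and 8.80 on the empty vector arrays 1 to 3 and 9.05, 9.43 and 9.49 on the full-length arrays. The difference was 0.70, a 1.63-fold ratio (SE 0.183, 95% interval 0.29 to 1.11), with a limma adjusted p of 0.213. Each full-length array lay above each empty vector array, and both probe sets of the gene gave positive differences, 0.56 and 0.70. Pgm1, the phosphoglucomutase that interconverts glucose 6-phosphate and glucose 1-phosphate, read 8.72, 9.08 and 9.05 with empty vector and 9.32, 9.84 and 9.78 with the full-length receptor. Its difference was 0.70 (1.62-fold, SE 0.189, 95% interval 0.28 to 1.13, limma adjusted p = 0.241), again with no overlap. The second Pgm1 probe set gave 0.32. Without the arrays numbered 3 the differences were 0.71 for Gys1 and 0.68 for Pgm1, with limma adjusted p of 0.189 and 0.326.

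The step between these enzymes pointed the other way. Ugp2, the UDP-glucose pyrophosphorylase that supplies the substrate of glycogen synthase, read 10.86, 10.82 and 10.40 with empty vector and 10.35, 10.20 and 10.14 with the full-length receptor. The difference was -0.47 (SE 0.14, 95% interval -0.78 to -0.15, limma adjusted p = 0.348), and it was -0.57 (adjusted p = 0.0994) without the arrays numbered 3. All 5 Ugp2 probe sets gave differences between -0.47 and -0.39. The 3 full-length arrays lay below all 3 empty vector arrays, the closest pair being full-length array 1 and empty vector array 3. Pgm2, a relative of Pgm1 that acts mainly on pentose phosphates, read 9.89, 9.70 and 9.68 against 10.00, 10.03 and 9.96, a difference of 0.24 (limma adjusted p = 0.809).

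The promoters of Gys1, Pgm1, Ugp2 and Pfkl, which is described further on, are printed here because these 4 members had the largest differences in size between full-length receptor and empty vector, none of them called. Each is the stretch of 250 bases before the annotated start in RefSeq's GRCm38.p6, 5′ to 3′ on the gene's strand, with ACGTG and GCGTG, core letters of the hypoxia response element, in capitals on either strand (read as CACGT and CACGC on the other). Gys1 lies on the plus strand at chr7:45434589-45434838, Pgm1 on the plus strand at chr4:99929201-99929450, Ugp2 on the minus strand at chr11:21371268-21371517 and Pfkl on the minus strand at chr10:78009808-78010057.
Gys1: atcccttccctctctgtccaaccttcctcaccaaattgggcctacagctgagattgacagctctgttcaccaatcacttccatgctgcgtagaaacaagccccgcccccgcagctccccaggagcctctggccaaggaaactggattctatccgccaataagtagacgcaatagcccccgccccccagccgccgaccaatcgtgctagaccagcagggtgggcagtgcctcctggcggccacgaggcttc
Pgm1: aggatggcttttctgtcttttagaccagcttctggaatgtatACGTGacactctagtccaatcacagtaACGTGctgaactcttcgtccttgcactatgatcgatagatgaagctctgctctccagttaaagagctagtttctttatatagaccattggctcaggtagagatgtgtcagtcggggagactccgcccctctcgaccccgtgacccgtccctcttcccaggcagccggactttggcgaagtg
Ugp2: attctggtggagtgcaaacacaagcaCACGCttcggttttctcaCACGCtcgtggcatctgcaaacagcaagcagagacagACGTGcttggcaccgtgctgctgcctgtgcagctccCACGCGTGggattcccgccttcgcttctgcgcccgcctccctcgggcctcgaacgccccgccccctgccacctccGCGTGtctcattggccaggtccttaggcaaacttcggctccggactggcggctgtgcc
Pfkl: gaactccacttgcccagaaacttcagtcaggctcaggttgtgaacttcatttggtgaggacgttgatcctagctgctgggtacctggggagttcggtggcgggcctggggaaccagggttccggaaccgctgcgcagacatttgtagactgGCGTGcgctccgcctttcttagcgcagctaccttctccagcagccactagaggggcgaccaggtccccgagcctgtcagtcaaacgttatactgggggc
The Gys1 window holds neither pentamer, the Pgm1 window holds ACGTG 2 times, the Ugp2 window holds ACGTG 1 time and GCGTG 5 times, and the Pfkl window holds GCGTG 1 time. None of the 4 holds AGGTCA, a hexamer that many nuclear receptors recognise, or the DR1 element, a direct repeat of that hexamer with 1 base between, which PPARγ binds together with RXR. The second annotated Ugp2 start, not printed, holds none of these letters. A match of letters is a description and shows no binding.

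**Figure D1:**
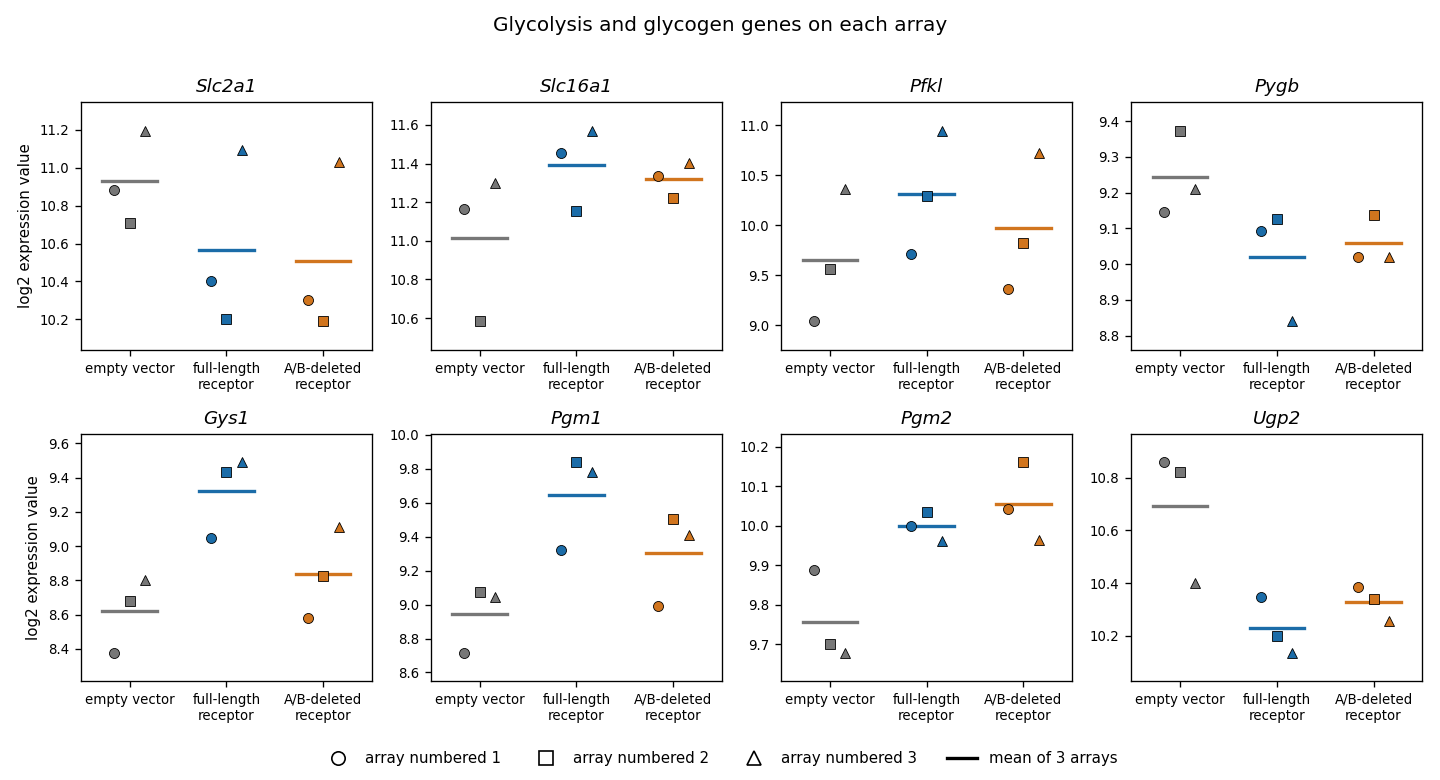
Log2 expression value (y axis, a separate scale for each gene) of 4 transport, glycolysis and glycogen breakdown genes above and 4 genes of the glycogen branch below, by group (x axis), with 1 point per array, its shape giving the replicate number, and a line at the mean of 3 arrays. The group means of Gys1 and Pgm1 are highest for the full-length receptor, with the A/B-deleted mean between, while Ugp2 lies at 10.40 or above on every empty vector array and at 10.38 or below on the other 6.

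The phosphorylases, which take glycogen apart, and the branching enzyme gave differences of either sign. Pygb, the brain form of glycogen phosphorylase, read 9.15, 9.37 and 9.21 with empty vector and 9.09, 9.12 and 8.84 with the full-length receptor, a difference of -0.22 (95% interval -0.49 to 0.05, limma adjusted p = 1.0). Pygl, the liver form, read 5.58, 4.93 and 4.84 against 5.07, 4.75 and 6.32, so that 1 full-length array lay far above its group. Pygm, the muscle form, read 5.88, 6.02 and 5.90 against 5.83, 6.18 and 6.28. Gbe1, the branching enzyme, read 7.21, 7.05 and 8.53 against 7.56, 7.02 and 8.08, with array 3 the highest in each group. The glycogen branch had a median difference of 0.20, which was -0.032 without full-length array 3. Mean levels of Pygl and Pygm, like those of 2 other members, lay under the median of all values in the table, 6.81, and the files give no detection calls.

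Glucose and lactate transport came next. Slc2a1, the glucose transporter GLUT1, read 10.88, 10.71 and 11.19 with empty vector and 10.40, 10.20 and 11.09 with the full-length receptor. The difference was -0.36 (SE 0.279, 95% interval -0.99 to 0.26, limma adjusted p = 1.0), and all 3 probe sets gave between -0.39 and -0.36. Arrays 1 and 2 of the full-length group lay below every empty vector array and its array 3 did not. Without the arrays numbered 3 the difference was -0.49 (adjusted p = 0.201). Slc16a1, the monocarboxylate transporter MCT1 that carries lactate, read 11.16, 10.58 and 11.30 against 11.46, 11.16 and 11.57, a difference of 0.38 (SE 0.191, 95% interval -0.05 to 0.81, limma adjusted p = 0.942). Its second probe set gave -0.04. Slc2a3, the glucose transporter GLUT3, read 5.79, 5.58 and 5.59 against 5.41, 5.76 and 5.82, and Slc16a3, the lactate exporter MCT4, differed by 0.04.

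At the entry and the committed step of glycolysis, Hk2, the inducible hexokinase, read 9.56, 9.42 and 9.90 with empty vector and 9.11, 9.14 and 9.91 with the full-length receptor, a difference of -0.24 that was -0.37 without the arrays numbered 3. The groups overlapped through their arrays 3. Pfkl, the liver form of phosphofructokinase, read 9.04, 9.56 and 10.36 against 9.71, 10.29 and 10.94. Its difference of 0.66 (1.58-fold) had the widest error of the branch (SE 0.44, 95% interval -0.33 to 1.65, limma adjusted p = 1.0), since arrays of 1 group differed by more than the groups did. In both groups the Pfkl values rose from array 1 to array 3, and the fit with the replicate number as a block is given in the closing section. Its 3 probe sets gave between 0.07 and 0.66. Pfkm, the muscle form, differed by 0.19 and Pfkp, the platelet form, by -0.06. The bifunctional enzymes that set the level of fructose 2,6-bisphosphate differed by 0.14 (Pfkfb2), 0.0025 (Pfkfb3) and -0.12 (Pfkfb4).

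In lower glycolysis the 2 groups lay close together. Pgk1, phosphoglycerate kinase, read 12.86, 12.83 and 13.36 with empty vector and 12.90, 12.89 and 13.47 with the full-length receptor, a difference of 0.07 (95% interval -0.46 to 0.60). Pgam1, phosphoglycerate mutase, read 12.92, 12.81 and 13.14 against 12.92, 12.98 and 13.31, and Ldha, which makes lactate, read 13.44, 13.46 and 13.64 against 13.44, 13.54 and 13.74. In each of these genes array 3 was the highest of its group, and the gap between array 3 and the others exceeded the gap between groups. Aldoa, the main aldolase, differed by 0.30 (SE 0.321), Pkm, pyruvate kinase, by 0.19 and Tpi1, triose phosphate isomerase, by 0.17. The Gapdh control probe sets, tested in a fit that kept control sets, differed by -0.0084 (95% interval -0.33 to 0.32, limma adjusted p = 1.0). The median of the 21 glycolysis genes was 0.04 and ran from -0.022 to 0.13 when single arrays were left out.

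Among the pentose phosphate genes, the differences against empty vector ran from -0.16 to 0.17 with a median of 0.14. Taldo1, transaldolase, read 10.22, 10.27 and 10.77 with empty vector and 10.54, 10.49 and 10.75 with the full-length receptor, a difference of 0.17 (95% interval -0.23 to 0.58). Rpia, ribose 5-phosphate isomerase, read 9.70, 9.44 and 9.52 against 9.92, 9.78 and 9.43, a difference of 0.15. Tkt, transketolase, read 12.04, 12.03 and 12.35 against 11.92, 11.66 and 12.36, a difference of -0.16. None of these pairs of groups was free of overlap, and all 3 intervals held 0. Pgd, the 6-phosphogluconate dehydrogenase that yields NADPH, differed by -0.03.

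**Figure D2:**
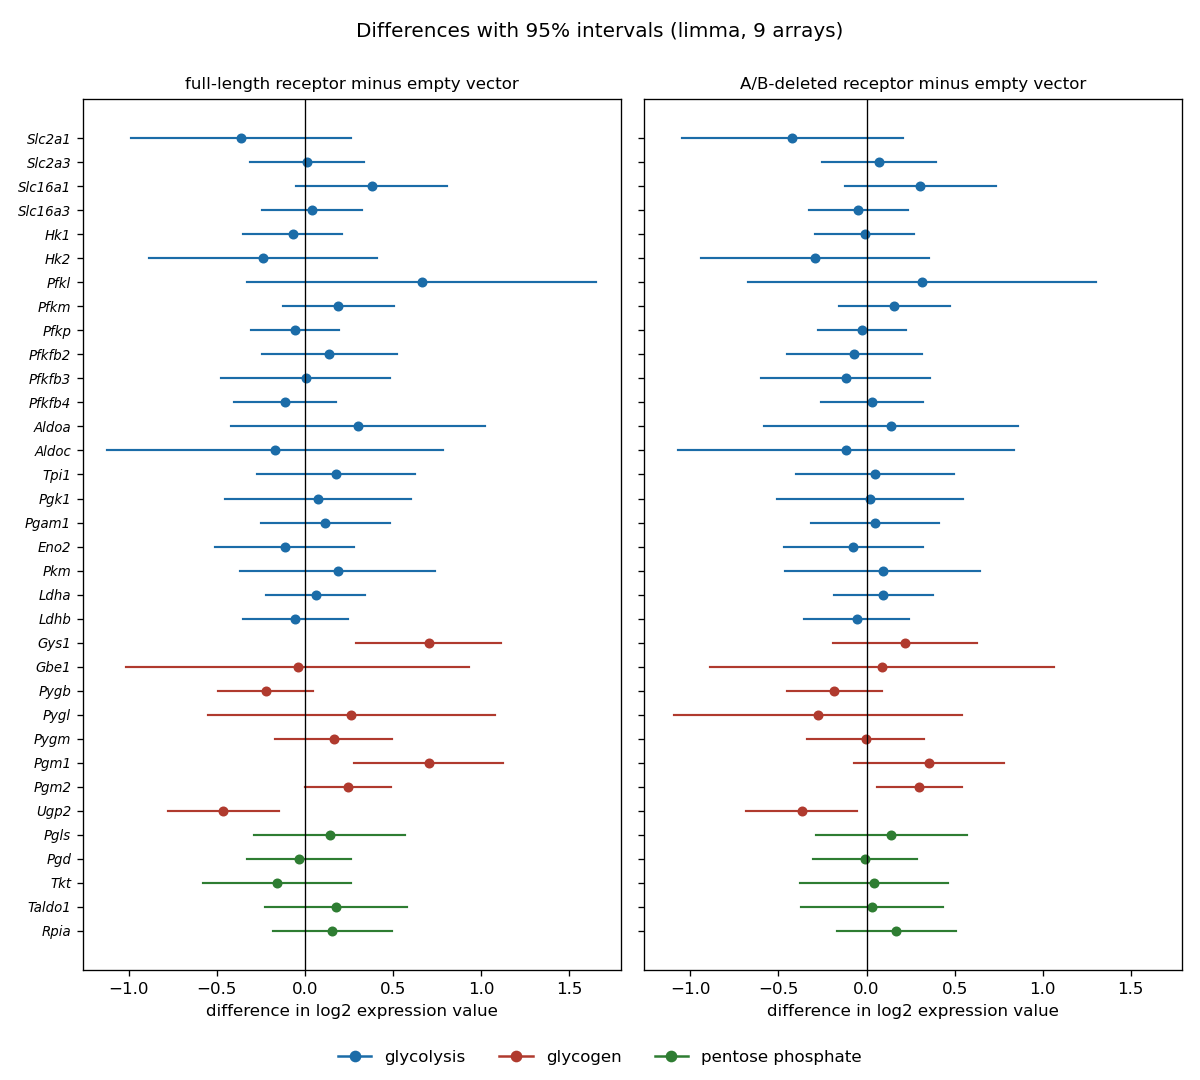
Difference in log2 expression value (x axis) of the 34 tested members (y axis, coloured by branch) for full-length receptor minus empty vector on the left and A/B-deleted receptor minus empty vector on the right, with 95% intervals from limma over 9 arrays. On the left the intervals of Gys1, Pgm1 and Ugp2 leave out 0, and on the right those of Pgm2 and Ugp2 do. Both panels share the empty vector arrays, and neither uses the replicate number as a block.

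The A/B-deleted receptor was compared with the same empty vector arrays, so its differences are not independent of those above. Limma called 0 of 34 members, against 0.17% of all genes tested, and 2 members had an unadjusted p under 0.05, Pgm2 and Ugp2, against 3.79% of all genes. The groups did not overlap for 3 members, Pgm2, Ugp2 and Pygb, against 7.89% of all genes (3.86% higher and 4.03% lower). Blocking on the replicate number, which the arrays of these groups bear out, gave 0 members and 0.912% of all genes, and at an unadjusted p under 0.05 it gave 8 members (Gys1, Hk2, Pfkl, Pgm1, Pgm2, Slc16a1, Slc2a1 and Ugp2) against 9.84% of all genes. Without the arrays numbered 3 there were 0 members and 0.302% of all genes. The median over members was 0.03 (all genes -0.03), and it moved to 0.12 without empty vector array 3 and to -0.070 without A/B-deleted array 3.

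Pgm2 read 10.04, 10.16 and 9.96 with the deleted receptor, each above the highest empty vector array at 9.89. The difference was 0.30 (SE 0.108, 95% interval 0.06 to 0.54, limma adjusted p = 1.0). Ugp2 read 10.38, 10.34 and 10.26, each below the lowest empty vector array at 10.40, a difference of -0.37 (SE 0.14, 95% interval -0.68 to -0.05, limma adjusted p = 1.0). Its 5 probe sets gave between -0.37 and -0.23. Gys1 read 8.58, 8.83 and 9.11, a difference of 0.22 (95% interval -0.19 to 0.63), and its arrays overlapped those of the empty vector. Pgm1 read 8.99, 9.50 and 9.41, a difference of 0.36 (95% interval -0.07 to 0.78), and here only array 1 lay within the empty vector range. The intervals here and in the next paragraph come from the fit without the block. With the block Gys1, Pgm1, Slc2a1, Slc16a1, Hk2 and Pfkl had a limma unadjusted p under 0.05. Rpia and Pgls did not, and none of these genes was called.

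In glycolysis, Slc2a1 read 10.30, 10.19 and 11.03 with the deleted receptor, a difference of -0.42 (95% interval -1.05 to 0.21), or -0.55 without the arrays numbered 3 (limma adjusted p = 0.272). Slc16a1 read 11.34, 11.22 and 11.40, a difference of 0.31 (95% interval -0.12 to 0.73). Hk2 read 8.99, 9.09 and 9.92, a difference of -0.29, and Pfkl read 9.36, 9.82 and 10.72, a difference of 0.31 (SE 0.44). As with the full-length receptor, arrays 1 and 2 of Slc2a1 and Hk2 lay below all empty vector arrays and array 3 lay among or above them. Pgk1 differed by 0.02, Pgam1 by 0.05 and Ldha by 0.09. Of the pentose phosphate genes, Rpia read 9.89, 9.63 and 9.65 (difference 0.17, 95% interval -0.17 to 0.51) and Pgls, the lactonase, read 10.18, 10.20 and 10.53 against 10.02, 9.96 and 10.50 (difference 0.14, 95% interval -0.29 to 0.57).

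The comparison of the 2 receptors, which share the agonist, asks where the A/B domain matters. Limma called 0 of 34 members and 0.0% of all genes, also with the replicate number as a block and without the arrays numbered 3. At an unadjusted p under 0.05 there was 1 member, Gys1, against 1.52% of all genes, and with the block there were 3, Gys1, Pfkl and Pgm1, against 4.32%. In 0 members were the groups free of overlap, against 5.17% of all genes. Gys1 differed by -0.48 in A/B-deleted minus full-length (SE 0.183, 95% interval -0.89 to -0.07, limma adjusted p = 1.0), and -0.54 without the arrays numbered 3. Only A/B-deleted array 3 at 9.11 reached past a full-length array, the first at 9.05. Pgm1 differed by -0.35 (95% interval -0.77 to 0.08), Pfkl by -0.35 (95% interval -1.34 to 0.64) and Ugp2 by 0.10 (95% interval -0.22 to 0.41). These intervals come from the fit without the block. There, those of Pgm1 and Pfkl leave room for no difference and for one as large as that against empty vector. With the block both genes had a limma unadjusted p under 0.05, as given above, and neither was called.

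Pygl had the lowest member difference between the receptors, -0.54 (95% interval -1.35 to 0.28), which rests on full-length array 3 at 6.32. Pfkfb2 read 6.97, 7.05 and 7.43 with the full-length and 7.20, 6.75 and 6.87 with the deleted receptor, a difference of -0.21 (95% interval -0.59 to 0.17), which was -0.03 without the arrays numbered 3. The 4 Pfkfb2 probe sets gave between -0.21 and 0.25. Pfkfb4 read 6.90, 6.81 and 6.64 against 6.97, 6.80 and 7.02, a difference of 0.15 (95% interval -0.14 to 0.44). Tkt read 12.06, 12.10 and 12.38 with the deleted receptor, a difference of 0.20 (95% interval -0.22 to 0.62). Its 3 probe sets gave between -0.21 and 0.20. Taldo1 read 10.27, 10.36 and 10.72, a difference of -0.14 (95% interval -0.54 to 0.26). Branch medians were -0.05 for glycolysis, -0.06 for glycogen and 0.01 for the pentose phosphate genes, against -0.01 for all genes, and the glycogen median was -0.23 without A/B-deleted array 3.

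For many members the arrays numbered 3 stood apart from the rest of their group. In all 3 groups array 3 was the highest of its group for 16 of 34 members (47.1%), against 14.9% of all genes tested, and the lowest for 5 (14.7%), against 14.2%. By branch the count was 10 of 21 glycolysis genes (47.6%), 2 of 8 glycogen genes (25%) and 4 of 5 pentose phosphate genes (80.0%). The 16 genes are Slc2a1, Slc16a1, Hk2, Pfkl, Aldoa, Tpi1, Pgk1, Pgam1, Pkm, Ldha, Gys1, Gbe1, Pgls, Pgd, Tkt and Taldo1, so that every step tested from aldolase to lactate dehydrogenase is represented except enolase. The 5 that were lowest are Hk1, Aldoc, Ldhb, Pgm2 and Ugp2, which include the other hexokinase, aldolase and lactate dehydrogenase among the 34 members. These counts hold for the probe sets used. Other sets of Hk1, Aldoc and Ldhb among the lowest, and of Gys1, Pfkl, Slc16a1 and Tkt among the highest, did not all follow. Array 3 was the highest in a second Hk1 set with the full-length receptor (8.11, 8.19 and 8.24). It was the highest in a second Aldoc set with the A/B-deleted receptor (5.95, 6.18 and 6.22). The same held for 1 further Ldhb set with empty vector (9.27, 9.49 and 9.61). Array 3 was instead the lowest with empty vector in further sets of Pfkl (6.86, 6.70 and 6.60) and Slc16a1 (6.15, 6.38 and 6.05). It was the middle array in the other Gys1 set with the A/B-deleted receptor (7.73, 8.30 and 7.98). So it was in a further Tkt set with empty vector (6.31, 6.14 and 6.22). The pattern was noticed in these data and is given without a test.

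For aldolase and lactate dehydrogenase, the probe sets used for 2 isoforms lay at opposite ends of the same arrays. The phosphofructokinases did not show this: in the probe sets used, Pfkl was highest on array 3 in every group, and Pfkm and Pfkp were in neither list. Aldoa read 11.62, 11.58 and 12.29 in the empty vector group, then 11.78, 11.90 and 12.71 in the full-length group, then 11.62, 11.74 and 12.54 in the A/B-deleted group. Aldoc, the brain form of aldolase, read 7.03, 7.58 and 6.19, then 6.85, 7.31 and 6.13, then 7.18, 7.14 and 6.13. In the probe sets used, array 3 was thus the highest for Aldoa and the lowest for Aldoc in each group. The second Aldoc set did not follow. On the arrays numbered 3 the Aldoc set used lay at 6.13 to 6.19, under the median of all values, 6.81. Ldhb, the heart form of lactate dehydrogenase, read 9.84, 9.92 and 9.74, then 9.84, 9.98 and 9.52, then 9.77, 9.84 and 9.73, with array 3 lowest, while Ldha was highest there. The median of array 3 minus the mean of arrays 1 and 2 over members was 0.16, 0.25 and 0.21 for empty vector, full-length and A/B-deleted, against -0.13, 0.07 and 0.06 over all genes. The 18S and Gapdh control values given above moved with the same 3 arrays, and their part in the pattern was not tested.

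**Figure D3:**
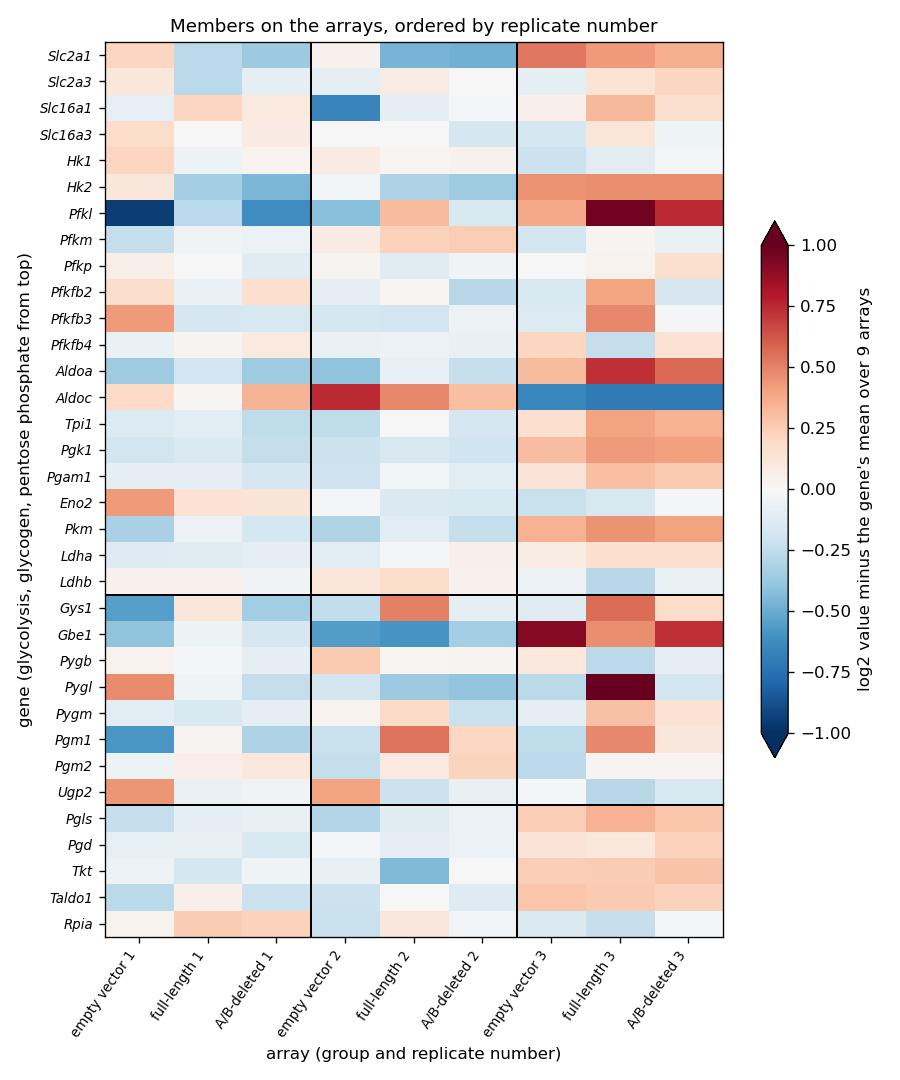
Log2 value minus the gene's mean over 9 arrays (colour, cut at -1 and 1) for the 34 tested members (y axis, by branch) on each array (x axis, ordered by replicate number and labelled by group). The 3 columns of arrays numbered 3 are red for most genes of lower glycolysis and the pentose phosphate pathway and blue for Aldoc.

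Other genes of the same pathways were counted from lists of non-members: 64 further pathway genes (isoforms, gluconeogenesis, glycogen and pentose phosphate accessory genes), 16 regulators and 14 targets of hypoxia-inducible factor 1 outside glycolysis. With the full-length receptor limma called 1 of 64 pathway genes, higher, 0 of 16 regulators and 0 of 14 targets, where 0.5% of all genes were called higher and 0.154% lower. At an unadjusted p under 0.05 there were 3, 3 and 2, against 6.19% of all genes. With the deleted receptor the counts were 0, 0 and 0, against 0.17% of all genes, and 4, 3 and 0 at an unadjusted p under 0.05, against 3.79%. Between receptors they were 0, 0 and 0, against 0.0%, and 1, 0 and 0 unadjusted, against 1.52%. Median differences with the full-length receptor were 0.02, 0.09 and 0.17 for pathway genes, regulators and targets.

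The 1 pathway gene called was Pcx, pyruvate carboxylase, which makes oxaloacetate from pyruvate. It rose from 7.22, 7.12 and 7.16 with empty vector to 9.22, 9.50 and 8.44 with the full-length receptor, a difference of 1.89 (3.70-fold, SE 0.304, limma adjusted p = 0.0265). The call was lost when any one of full-length array 1 or 2, empty vector array 1, 2 or 3 or A/B-deleted array 1 was left out, with an adjusted p of up to 0.137, and was kept without all 3 arrays numbered 3 (difference 2.19, adjusted p = 0.00961). With the deleted receptor Pcx read 7.86, 8.54 and 7.49, above every empty vector array but with a difference of 0.80 (limma adjusted p = 1.0). The difference between receptors was -1.09 (95% interval -1.78 to -0.41, limma adjusted p = 1.0), and full-length array 3 lay just below A/B-deleted array 2. Phka2, a regulatory subunit of phosphorylase kinase, which activates glycogen breakdown, read 8.45, 8.26 and 8.21, then 9.10, 8.96 and 8.79, then 8.93, 8.64 and 8.51, a difference of 0.64 with the full-length receptor (limma adjusted p = 0.115) and 0.39 with the deleted one. Tktl2, a transketolase relative, read 6.32, 5.48 and 5.30 with empty vector and 5.63, 4.90 and 5.37 with the deleted receptor, overlapping ranges.

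Among the regulators, Hif1a, the oxygen-regulated factor that activates many glycolysis genes, read 11.28, 10.86 and 11.13 in the empty vector group, then 11.79, 11.86 and 12.06 in the full-length group, then 11.63, 11.54 and 11.90 in the A/B-deleted group. The differences against empty vector were 0.81 (limma adjusted p = 0.0545) and 0.60 (adjusted p = 0.451), and no receptor array overlapped an empty vector array. Txnip, which binds thioredoxin and restrains glucose uptake, read 8.88, 9.47 and 7.02, then 11.29, 11.49 and 9.57, then 11.29, 11.56 and 8.91, with array 3 lowest in every group. The full-length difference was 2.33 (5.03-fold, SE 0.839, limma adjusted p = 0.542), and without the arrays numbered 3 it was 2.22 (adjusted p = 0.00683). With the deleted receptor it was 2.13 (4.38-fold, limma adjusted p = 1.0), a rise that passed the threshold with the replicate number as a block (adjusted p = 0.00544) or without the arrays numbered 3 (2.25, adjusted p = 0.0138).

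**Figure D4:**
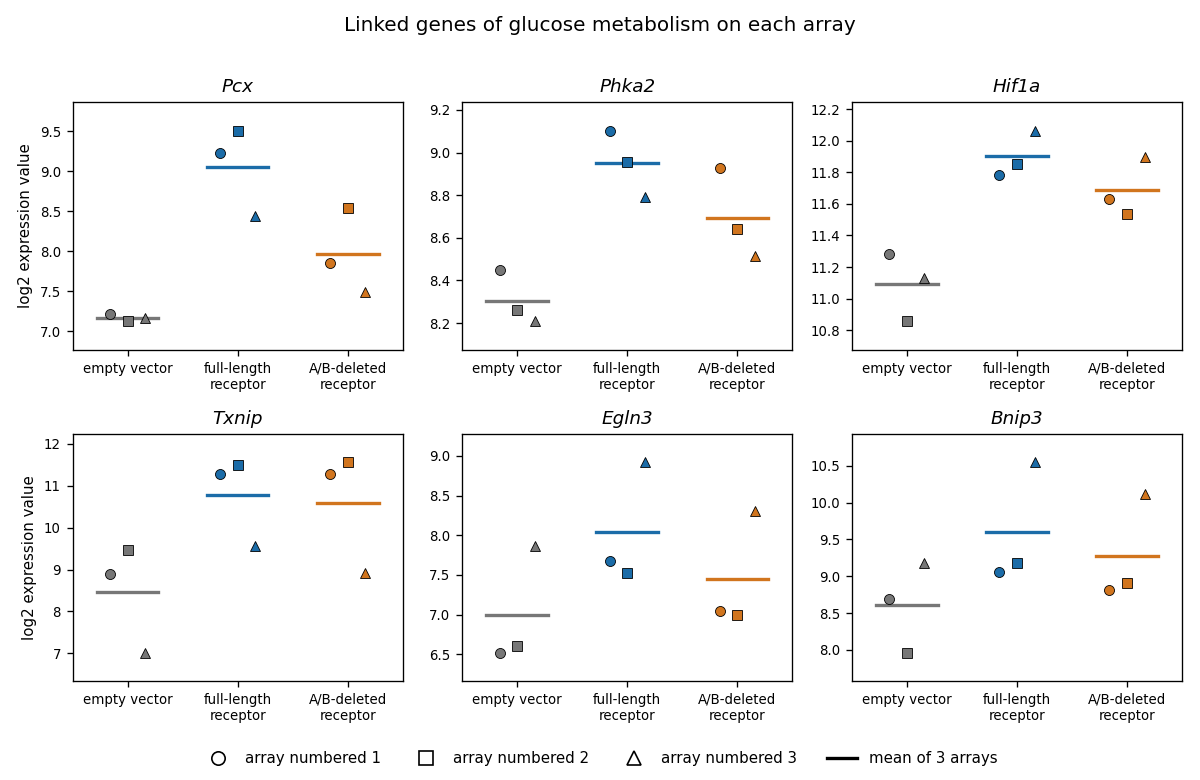
Log2 expression value (y axis, a separate scale for each gene) of 2 further pathway genes, 2 regulators and 2 hypoxia-inducible factor targets, by group (x axis), with 1 point per array, its shape giving the replicate number, and a line at the mean of 3 arrays. Pcx lies at 8.44 to 9.50 on the full-length arrays against 7.12 to 7.22 with empty vector, and array 3 is lowest in each group for Txnip and highest for Egln3 and Bnip3.

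Of the hypoxia-inducible factor targets, Egln3, a prolyl hydroxylase that acts on that factor, read 6.52, 6.60 and 7.87 on the empty vector arrays, then 7.68, 7.52 and 8.92 on the full-length arrays, then 7.05, 7.00 and 8.30 on the A/B-deleted arrays. The full-length difference was 1.05 (limma adjusted p = 0.887) and 1.04 without the arrays numbered 3 (adjusted p = 0.013). The deleted receptor gave 0.45. Bnip3, a mitophagy receptor, read 8.69, 7.96 and 9.18, then 9.06, 9.18 and 10.55, then 8.81, 8.90 and 10.12, differences of 0.99 (limma adjusted p = 0.91) and 0.67. In both genes array 3 was again the highest of each group, and the groups overlapped. Vegfa, the angiogenic growth factor, read 8.19, 7.96 and 9.36, then 7.97, 8.37 and 8.34, then 7.76, 7.71 and 8.52.

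The letters of the promoters were counted for the 33 tested members with an entry in the RefSeq table, a gene counting when any of its annotated starts held the motif on either strand. ACGTG was held by 18 members (54.5%), against 22.5% of the 14452 tested genes with an entry and 18.5% of all 27025 genes, and GCGTG by 22 (66.7%), against 42.5% and 30.9%. CACGTG, the E-box, which contains ACGTG, was held by 5 (15.2%), against 8.73% and 6.86%. AGGTCA was held by 5 (15.2%), against 14.6% and 15.8%, and DR1 by 0, against 0.0484% and 0.0407%. The windows of the members held a median of 60.0% G and C, those of tested genes 57.6% and those of all genes 52.4%. A gene with more annotated starts had more windows in which to match. The parts of base composition and of the number of starts in the shares were not tested.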

How the data were processed

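Total RNA of NIH-CAR cells, primed with oligo(dT), was measured on 9 Affymetrix arrays, 3 per group. Groups and replicate numbers came from the sample titles. Per the submitters' processing notes, the authors used RMA, affy and R 2.5.0, and the deposited table holds log2 values. No source states the logarithm's base. It was read from the values, whose antilog to base 2 lay within 0.01 of a whole number of hundredths (in units of a hundredth) for at least 99.86% of values on every array. Array medians ran from 6.68 to 6.90. An array has no read depth, and 3 arrays per group limit the precision: the median SE of a difference was 0.177 for members and 0.158 for all genes.

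Of 45101 probe sets, 34945 with 1 gene symbol in the platform annotation and no control role entered, those with several symbols (932), none (9160) or a control role (64) did not, and each of 18193 genes kept its probe set of highest mean across the 9 arrays. Limma 3.58.1 in R 4.3.3 (lmFit, eBayes) fitted 3 group means over the 9 arrays, and p-values were adjusted by Benjamini-Hochberg over all genes. Tables used pandas 2.3.3 and numpy 2.4.6 in Python 3.11.15, and plots matplotlib 3.10.9. The fit was tested on simulated data. The members and lists were chosen with earlier results of these data known.

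Values in every array are given for members called in any comparison with or without the block, the 2 of each branch with the smallest p in each comparison, the 3 with the highest and the 3 with the lowest mean, and others where an array pattern is described; from the other lists, for genes called and the 2 largest differences. Deviations from the group means correlated between arrays of the same number by 0.52 to 0.71 for A/B-deleted and empty vector. For A/B-deleted and full-length they correlated by 0.30 to 0.53. Arrays of these comparisons were therefore treated as pairs, but only in results that name the replicate number as a block. All other SE, intervals and adjusted p of single genes, also for these comparisons, come from fits without the block. Alternatives covered the replicate block, the arrays in the fit, averaging of probe sets, median and quantile scaling, a filter on dim genes, a variance trend, arrays left out and, added after seeing the data, control probe sets kept and the block with median scaling. Promoters are from RefSeq's GRCm38.p6 table.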

Additional observations from a re-analysis of the deposited data

How the results depend on the processing

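The choice that moved member counts was the replicate number. For full-length and empty vector, arrays of the same number correlated in their deviations by -0.12, 0.63 and 0.26 over all genes, and array 1 matched number 2 best, so by the rule over all genes they were not treated as pairs. Over the 34 members alone the values were 0.41, 0.84 and 0.58, and each number matched itself best. With the replicate block limma called 3 members there, Gys1 (adjusted p = 0.00637), Pgm1 (0.00541) and Pfkl (0.00812), while the calls over all genes went from 119 to 661, 3.63% of them. The count of members was 3 as well with the block and median scaling and with the block and control probe sets kept. Under the block the further pathway genes called went from 1 to 2 (Pcx and Phka2), the regulators from 0 to 2 (Hif1a and Txnip) and the hypoxia-inducible factor targets from 0 to 1 (Egln3), or to 3 with median scaling. In the same order the block with control probe sets kept gave 2, 2 and 1. For the deleted receptor the block changed 1 call in these lists, Txnip, taking the regulators from 0 to 1 under all 3 forms of the block. The block alone called 0.912% of all genes there. It changed no call between the receptors.

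Regulators called with the full-length receptor were 1 with quantile scaling, with dim genes left out or with a variance trend (Hif1a). Without the arrays numbered 3 they were 1 (Txnip) and the targets 1, against 0.857% of all genes. Regulators for the deleted receptor were then also 1, against 0.302% of all genes. Leaving out single arrays gave 0 to 1 pathway genes. It moved the median of all members between -0.0083 and 0.13 for the full-length receptor and between -0.070 and 0.12 for the deleted one, that of glycolysis between -0.022 and 0.13 and that of glycogen between -0.032 and 0.27 for the full-length receptor, and that of glycogen between -0.23 and -0.043 between receptors. Of 1446 recomputed differences of the named genes, 1339 kept their sign and side of the threshold, 23 passed it only under an alternative, 6 no longer passed it (all Pcx), and 78, none past the threshold, changed sign, from differences of at most 0.32 in size. With 3 arrays per group, differences of the size seen in most members lie within their errors.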
